A study of Mus musculus with 16 samples.

Results

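The 10 genes described here encode the enzymes with which a cell makes serine, asparagine and proline and feeds serine carbon into the mitochondrial folate cycle. They are Phgdh, Psat1, Psph, Shmt2, Mthfd2, Mthfd1l, Asns, Pck2, Aldh18a1 and Pycr1. Every non-control probe of the array that carries one of these names was taken, which gave 16 probes, and each gene was read from its brightest probe. They are 10 of the 34781 gene names on the array, and all 10 are among the 25408 genes whose signal was high enough to be tested.

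The RNA came from primary type II cells of the lung alveolus, the epithelial cells that make surfactant, of C57BL/6 mice with no genetic change named in the labels. The cells were kept in normoxia, 21% O2, or in hyperoxia, 85% O2, for 6 h or for 24 h, and each of these 4 groups was measured on 4 one-colour arrays. The labels do not say whether the 4 replicates of a group are separate animals, pools or cultures, so the p-values measure only the spread between these arrays, which may be technical. All 6 h arrays shared a slide and all 24 h arrays another, and normoxia arrays filled one row of a slide and hyperoxia arrays the other. Time cannot be told apart from slide, nor oxygen from slide row.

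Values are log2 signal relative to the 75th percentile of the same array, so that 0 is the level of a fairly bright probe and a step of 1 is a doubling. Such a level depends on the probe and is compared between arrays, not between genes. Errors of group means are SD and errors of log2 fold changes are SE, with n = 4 arrays a group. A gene rose or fell where its adjusted p from limma, a linear model fitted over all genes tested, was under 0.05.

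Serine is made from the glycolytic intermediate 3-phosphoglycerate. Phgdh oxidises it, Psat1 adds an amino group from glutamate and Psph removes the phosphate. In the mitochondrion Shmt2 splits serine into glycine and a carbon unit carried on folate, Mthfd2 oxidises that unit and Mthfd1l releases it as formate for purine and thymidylate synthesis in the cytosol. Asns makes asparagine from aspartate, Pck2 makes phosphoenolpyruvate inside the mitochondrion, and Aldh18a1 and Pycr1 catalyse the first and the last step from glutamate to proline. The genes are known as targets of ATF4, the transcription factor whose translation rises when amino acids run short or the endoplasmic reticulum is stressed, and proliferating cells use their products for nucleotides and protein.

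The 16 probes were well above background on 16 of 16 arrays. Arrays at 24 h were dimmer, with 75th percentiles of 556.1 to 800.6 against 898.6 to 1021 at 6 h. Of all probes 53.65% to 68.98% exceeded background on an array, and normoxia 24 h replicate 3 had the smallest share. The type II label was checked against 12 marker genes. Slc34a2, the phosphate transporter of these cells, was not above background on any array. Lamp3, a lamellar body gene, had means of 4.46 ± 0.06 and 4.30 ± 0.17 in normoxia and hyperoxia at 6 h, and 4.34 ± 0.04 and 3.30 ± 0.08 at 24 h. The surfactant gene Sftpc had means of 3.88 ± 0.48 and 4.34 ± 0.59 in normoxia and hyperoxia at 6 h, and 1.39 ± 0.82 and 1.84 ± 0.70 at 24 h. The summed linear signal of the type II markers, each relative to the 75th percentile, ran from 60.45 to 74.39 in normoxia and 56.52 to 80.91 in hyperoxia at 6 h. That of the fibroblast and smooth muscle markers ran from 925.7 to 1106 and from 873 to 1152 on the same arrays. Such sums depend on the probes and do not measure the shares of the cell types. The fibroblast and smooth muscle gene Tagln went from 8.21 ± 0.06 to 8.82 ± 0.08 over time in normoxia. In RNA of bulk samples a smaller share of a cell type and less RNA per cell cannot be told apart.

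At 24 h all 10 genes were lower in hyperoxia than in normoxia. The falls ran from 1.72-fold for Asns to 3.42-fold for Pck2, and 6 genes fell at least 2-fold. This count depends on the probe read. Phgdh and Psph fell less than 2-fold on their brightest probes, while their further probes had log2 fold changes of -1.05 and -1.10 for Phgdh and -1.06 for Psph. Of all genes tested 12.8% were called lower and 15.5% higher in this comparison and 2.03% were called lower by at least 2-fold. The 4 hyperoxia arrays lay below the 4 normoxia arrays for 10 of the 10 genes, as they did for 15.3% of all genes. The median log2 fold change of the 10 was -1.26, and that of all genes was 0.0051. The 10 genes were chosen with earlier results of these data known. The shares of all genes are therefore given as a description and not as a test of the 10 as a set.

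**Figure D1:**
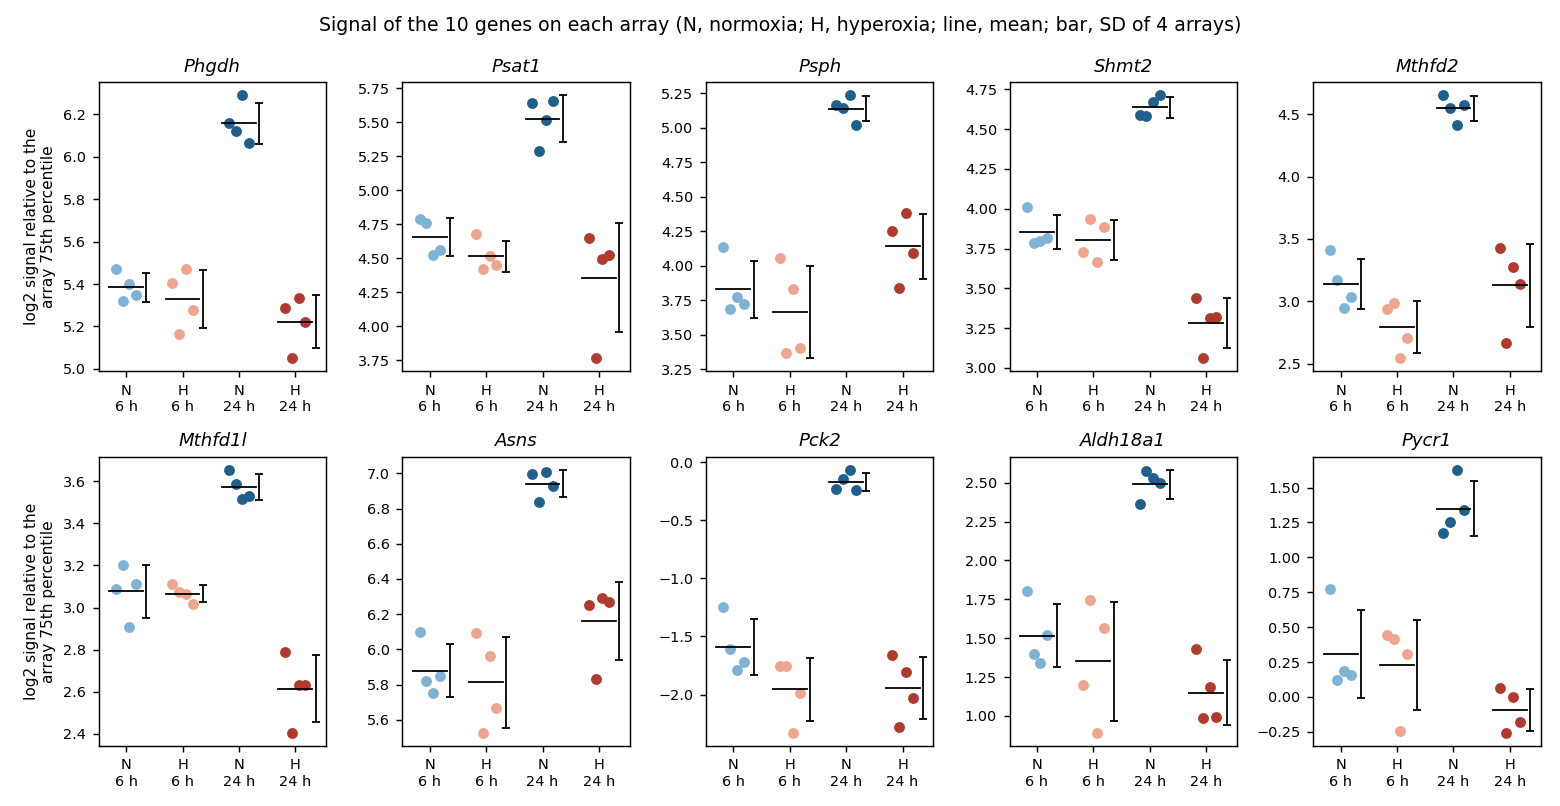
Log2 signal relative to the array 75th percentile of the 10 genes on each of the 16 arrays, by group (N, normoxia; H, hyperoxia), with points for arrays in replicate order, a line for the mean and a bar for the SD of 4 arrays. Each panel has its own vertical scale. In every panel the normoxia 24 h arrays lie above the arrays of the other 3 groups.

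The serine pathway fell at each of its 3 steps. Phgdh, its first enzyme, stood at 6.16, 6.12, 6.29 and 6.06 in normoxia at 24 h and at 5.29, 5.05, 5.33 and 5.22 in hyperoxia. The groups did not overlap, and each spread over less than 0.3. Phgdh fell 1.91-fold (log2 fold change -0.94 ± 0.08, adjusted p = 9.46e-07). The array annotation places this brightest probe on chromosome 17. The further Phgdh probes, on chromosome 3, had log2 fold changes of -1.05 and -1.10. Psat1, the aminotransferase, stood at 5.64, 5.29, 5.52 and 5.66 in normoxia and at 4.65, 3.76, 4.49 and 4.52 in hyperoxia, where replicate 2 was well below the others. It fell 2.25-fold (-1.17 ± 0.16, adjusted p = 6.04e-05). For Psph, the phosphatase, normoxia held 5.16, 5.14, 5.23 and 5.02 and hyperoxia 4.25, 3.84, 4.38 and 4.09, again without overlap. It fell 1.995-fold (-0.996 ± 0.16, adjusted p = 0.000235).

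The 3 mitochondrial folate enzymes fell as well, and Shmt2 had the lowest adjusted p of the 10 genes. Shmt2, which releases the carbon unit from serine, read 4.59, 4.58, 4.67 and 4.71 in normoxia and 3.44, 3.06, 3.31 and 3.32 in hyperoxia. Every hyperoxia array was more than 1 log2 unit below every normoxia array. It fell 2.56-fold (-1.36 ± 0.09, adjusted p = 4.05e-08). Mthfd2, the dehydrogenase, read 4.65, 4.55, 4.41 and 4.58 against 3.43, 2.66, 3.28 and 3.14. Its normoxia arrays lay within 0.3 of each other, and the hyperoxia arrays spread over a wider range because replicate 2 was lowest. It fell 2.68-fold (-1.42 ± 0.15, adjusted p = 6.91e-06). Mthfd1l, the formate-releasing enzyme, had the smallest fall among them, 1.94-fold (-0.96 ± 0.08, adjusted p = 6.61e-07), from 3.57 ± 0.06 to 2.62 ± 0.16.

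Asns, asparagine synthetase, fell least among the 10 genes. It read 6.996, 6.84, 7.01 and 6.93 in normoxia and 6.25, 5.83, 6.29 and 6.27 in hyperoxia. The 3 upper hyperoxia arrays lay within 0.1 of each other and replicate 2 lay apart below them. The fall was 1.72-fold (-0.78 ± 0.13, adjusted p = 0.000376).

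Pck2, the mitochondrial carboxykinase, fell most. Its readings were -0.23, -0.15, -0.07 and -0.24 in normoxia and -1.66, -2.28, -1.81 and -2.03 in hyperoxia. The groups were separated by more than 1 log2 unit. The fall was 3.42-fold (-1.77 ± 0.15, adjusted p = 8.58e-07), which placed Pck2 at percentile 0.67 of all log2 fold changes at 24 h, where Asns was at 3.67.

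Both enzymes of proline synthesis fell. Aldh18a1, which phosphorylates and reduces glutamate, went from 2.49 ± 0.09 in normoxia to 1.15 ± 0.21 in hyperoxia, a 2.53-fold fall (-1.34 ± 0.16, adjusted p = 2.46e-05). Pycr1, the mitochondrial reductase that completes proline, read 1.18, 1.25, 1.63 and 1.34 in normoxia and 0.07, -0.26, 0.00 and -0.18 in hyperoxia. The groups did not overlap, and Pycr1 fell 2.71-fold (-1.44 ± 0.17, adjusted p = 1.92e-05).

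The promoters of the 10 genes were searched because the genes moved together. The stretch read was the 250 bases before the RefSeq start of each gene (GRCm38.p6), for which all 10 genes had an entry. The letters TGATGNAA, the core of the composite site bound by ATF4 with a C/EBP partner, were present on either strand in 3 of the 10 genes and in 3.45% of the 32851 promoters. The 3 are shown because they carry this match, which is in capitals. Each reads 5′ to 3′ in the direction of its gene. They are Asns (chr6:7693210-7693459, minus strand), Pycr1 (chr11:120643749-120643998, minus strand) and Pck2 (chr14:55540016-55540265, plus strand).
Asns: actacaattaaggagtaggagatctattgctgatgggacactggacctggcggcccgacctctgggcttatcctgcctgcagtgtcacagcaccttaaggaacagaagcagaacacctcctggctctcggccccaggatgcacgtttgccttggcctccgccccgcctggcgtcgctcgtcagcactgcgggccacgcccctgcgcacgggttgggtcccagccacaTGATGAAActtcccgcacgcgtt
Pycr1: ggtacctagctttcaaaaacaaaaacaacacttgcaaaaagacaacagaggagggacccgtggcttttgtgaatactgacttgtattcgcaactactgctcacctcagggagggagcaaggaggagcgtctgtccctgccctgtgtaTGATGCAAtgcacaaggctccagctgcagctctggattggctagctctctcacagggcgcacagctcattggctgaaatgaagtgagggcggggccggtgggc
Pck2: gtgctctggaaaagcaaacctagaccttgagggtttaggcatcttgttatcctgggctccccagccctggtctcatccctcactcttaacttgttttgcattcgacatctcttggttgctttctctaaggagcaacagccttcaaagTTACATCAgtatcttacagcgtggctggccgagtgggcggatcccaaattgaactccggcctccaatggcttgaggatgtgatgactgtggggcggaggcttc
The match began 23 bases before the start in Asns and 103 bases before it in Pycr1 and in Pck2, where it reads on the opposite strand. Asns had the smallest and Pck2 the largest fall of the 10 genes. CACGTG, the letters bound by MYC and related factors, was present in Aldh18a1 only, against 6.02% of all promoters. TGACNNNGC, the core bound by NRF2, was present in Phgdh and Asns, against 10.2% of all promoters. No motif overlapped another in these 10 genes. A match describes the letters in this window only, and binding was not measured.

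After 6 h none of the 10 genes passed the test between hyperoxia and normoxia. All 10 estimates lay below 0, from -0.37 ± 0.15 for Pck2 to -0.01 ± 0.08 for Mthfd1l, with a median of -0.11 against 0.01 for all genes. Of all genes tested 0.0905% were called lower and 0.236% higher. At an unadjusted limma p under 0.05 there were 2 of the 10, Pck2 and Mthfd2, both lower, where 3.35% of all genes were lower at that p. Both missed the threshold after adjustment, with adjusted p-values of 0.600 and 0.622. Their 95% intervals, from -0.69 to -0.04 for Pck2 and from -0.67 to -0.02 for Mthfd2, did not reach a 2-fold fall.

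The 6 h groups overlapped for each of the 10 genes, where 2% of all genes were lower without overlap. Pck2 read -1.25, -1.61, -1.79 and -1.72 in normoxia and -1.75, -1.76, -2.33 and -1.99 in hyperoxia. Replicate 1 was highest in normoxia and replicate 3 lowest in hyperoxia, and the other arrays were mixed or close. For Mthfd2 the readings were 3.41, 3.17, 2.95 and 3.03 against 2.94, 2.98, 2.54 and 2.70, where 1 hyperoxia array lay above the lowest normoxia array. Asns read 6.10, 5.82, 5.75 and 5.85 against 6.09, 5.53, 5.96 and 5.67, and the groups were interleaved.

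**Figure D2:**
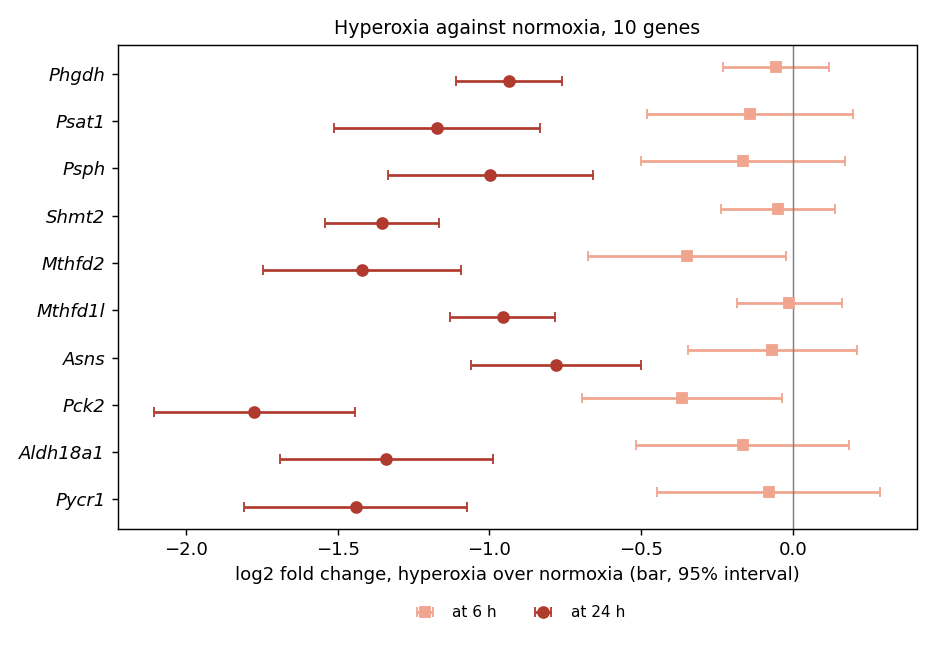
Log2 fold change of hyperoxia over normoxia for the 10 genes at 6 h (squares) and at 24 h (circles), with 95% intervals from the fit over all genes. The 24 h estimates run from -1.77 to -0.78 and none of their intervals reaches 0, while the 6 h estimates run from -0.37 to -0.01.

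The hyperoxia effect at 24 h was tested against that at 6 h within the same fit. It was lower for 10 of the 10 genes, and 5.63% of all genes were called lower in this difference. The largest difference was that of Pck2, -1.41 ± 0.22 (adjusted p = 0.000672), and the smallest that of Asns, -0.71 ± 0.18 (adjusted p = 0.0200). Shmt2 had the lowest adjusted p, 8.47e-06, with a difference of -1.31 ± 0.12. The call of Psph, -0.83 ± 0.22 (adjusted p = 0.0240), did not hold without normoxia 6 h replicate 4, when its adjusted p was 0.0515.

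The difference between the times came with a rise in normoxia. From 6 h to 24 h in normoxia all 10 genes rose, by 1.41-fold for Mthfd1l to 2.68-fold for Pck2, with a median log2 fold change of 1.01 against -0.023 for all genes. Of all genes 20.6% were called higher and 23.5% lower, and 1.87% were called higher by at least 2-fold, as were 5 of the 10. The 24 h arrays lay above the 6 h arrays for 10 of the 10 genes and for 21.9% of all genes. This comparison shares its normoxia 24 h arrays with the hyperoxia comparison at 24 h, so the rise and the fall rest in part on the same readings.

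Mthfd2 rose from readings of 2.95 to 3.41 at 6 h to readings of 4.41 to 4.65 at 24 h, 2.65-fold (1.41 ± 0.15, adjusted p = 1.76e-05). Pck2 rose from -1.59 ± 0.24 to -0.17 ± 0.08 (log2 fold change 1.42 ± 0.15, adjusted p = 1.77e-05). Psph, the last enzyme of serine synthesis, rose 2.47-fold (1.31 ± 0.16), its values being 4.14, 3.69, 3.78 and 3.72 at 6 h. Asns rose 2.09-fold (1.06 ± 0.13) and Pycr1 2.06-fold (1.04 ± 0.17). Aldh18a1, Psat1, Shmt2 and Phgdh rose by 0.97, 0.87, 0.79 and 0.77 on the log2 scale. Over the same interval 7 of the 11 fibroblast and smooth muscle markers rose, and their summed signal, 925.7 to 1106 on the 6 h arrays, lay between 1579 and 1814 on those of 24 h. Of the 11 tested type II markers 7 fell and 1, Etv5, rose. The summed signal of the macrophage markers, 29.63 to 34.38 at 6 h, lay between 58.01 and 74.12 at 24 h, though 1 of the 10 tested rose and 4 fell. That of the club and secretory airway cell markers, 26.99 to 51.64 at 6 h, lay between 7.171 and 8.699 at 24 h, where 1 of the 5 tested rose and 3 fell. Similar numbers of markers moved in hyperoxia, where 2 of the 10 genes rose and 2 fell. There 7 of the 11 fibroblast and smooth muscle markers rose and 0 fell. Their median log2 fold change over time was 0.47, against 0.61 in normoxia. Of the type II markers 8 fell and 0 rose in hyperoxia. Among the macrophage markers 5 fell and 2 rose there, and among the club and secretory airway cell markers 3 fell and 1 rose. Whether these cell types had a part in the rise of the 10 genes was not tested.

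In hyperoxia the 10 genes did not move one way between 6 h and 24 h. Psph rose 1.39-fold (0.47 ± 0.16, adjusted p = 0.0206) and Asns 1.27-fold (0.35 ± 0.13, adjusted p = 0.0361), while Shmt2 fell 1.43-fold (-0.52 ± 0.09, adjusted p = 0.000226) and Mthfd1l 1.37-fold (-0.45 ± 0.08, adjusted p = 0.000376). Of all genes 25% were called higher and 27.4% lower, so that 2 of 10 in either direction is no more than the share of all genes. The groups overlapped for the 2 that rose and not for the 2 that fell, and 24.1% of all genes fell without overlap.

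Shmt2 read 3.73, 3.93, 3.67 and 3.88 in hyperoxia at 6 h, and its 24 h readings of 3.06 to 3.44 lay below all of them. Mthfd1l read 3.11, 3.07, 3.06 and 3.02 at 6 h and 2.79, 2.41, 2.63 and 2.63 at 24 h. The other 6 genes did not pass, with estimates from -0.32 ± 0.17 for Pycr1 to 0.34 ± 0.15 for Mthfd2. Without hyperoxia 24 h replicate 2, the lowest array for all 10 genes, Mthfd2 was called higher (0.49, adjusted p = 0.00679), and without hyperoxia 6 h replicate 3 Pycr1 was called lower (-0.48, adjusted p = 0.0182). Pck2, the gene with the largest change in the other comparisons, had a log2 fold change of 0.01 ± 0.15 with a 95% interval from -0.32 to 0.34. The rises of Psph and Asns were both lost without hyperoxia 6 h replicate 2 (adjusted p = 0.0668 and 0.115), without hyperoxia 6 h replicate 4 (0.0692 and 0.0978), without hyperoxia 24 h replicate 1 (0.0531 and 0.0855) and without hyperoxia 24 h replicate 3 (0.0674 and 0.0955). That of Asns was also lost without hyperoxia 24 h replicate 4 (0.0874).

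**Figure D3:**
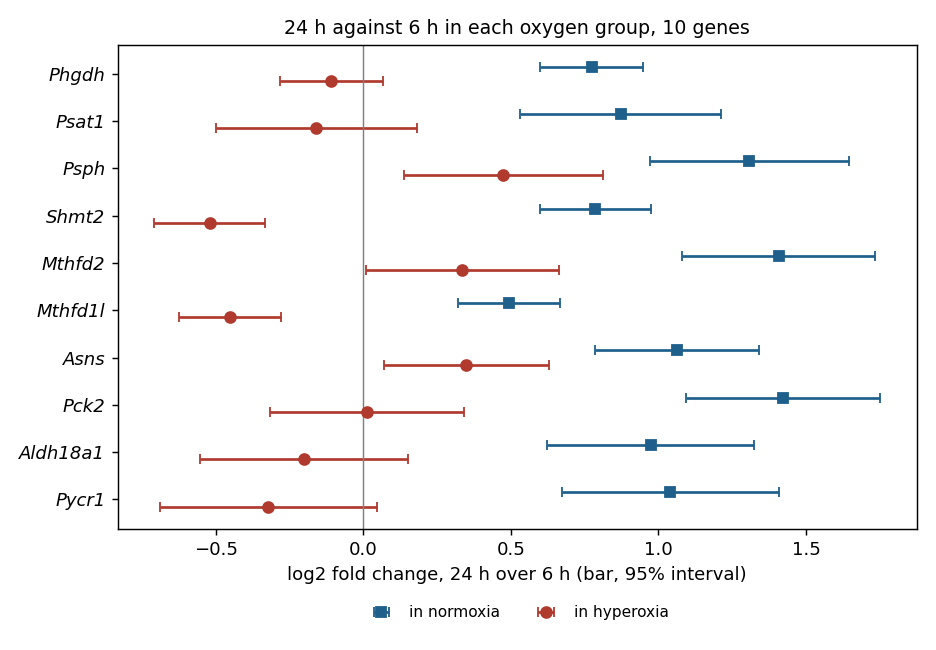
Log2 fold change of 24 h over 6 h for the 10 genes in normoxia (squares) and in hyperoxia (circles), with 95% intervals. The normoxia estimates run from 0.49 to 1.42 and the hyperoxia estimates from -0.52 to 0.47, and for each gene the hyperoxia estimate lies to the left of the normoxia one.

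The arrays of a group also differed among themselves in a shared way. Hyperoxia 24 h replicate 2 was the lowest of its group for 10 of the 10 genes, with a mean deviation from the group means of -0.295, while it was lowest for 25.1% of all genes tested. Of its probes 62.91% were well above background, the highest share at 24 h. Normoxia 6 h replicate 1 was the highest of its group for 9 of the 10 genes and for 27.9% of all genes, with a mean deviation of 0.227. Once group means were taken out, the correlation of a gene with the mean of the other 9 over the 16 arrays ran from 0.41 for Aldh18a1 to 0.87 for Mthfd2. These points share arrays and labelling reactions. Leaving out hyperoxia 24 h replicate 2 kept all 10 falls at 24 h.

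Several of the 10 enzymes have a counterpart in the cytosol or a close relative with the same reaction. Log2 ratios of the paired signals on the same array were compared between hyperoxia and normoxia at 24 h, for 4 pairs chosen after their values were seen. In all 4 pairs the mean ratio was lower in hyperoxia and the groups did not overlap. The 4 members of these pairs had themselves fallen without overlap, so lower ratios were to be foreseen. Because of this and of the choice of pairs the ratios are given as a description, with no test.

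Shmt1, the cytosolic form of Shmt2, went from -1.67 ± 0.12 to -1.89 ± 0.11, and the log2 ratio of Shmt2 to Shmt1 was 6.31 ± 0.12 in normoxia and 5.17 ± 0.21 in hyperoxia. Mthfd2l, the relative of Mthfd2 in adult tissues, was 1.05 ± 0.21 and 1.15 ± 0.10, and the ratio was 3.50 ± 0.13 and 1.97 ± 0.33. For Mthfd1l against the cytosolic Mthfd1, which fell 1.23-fold itself (-0.30 ± 0.09, adjusted p = 0.0186), the ratio was 0.29 ± 0.13 and -0.37 ± 0.33. The ratio of Pycr1 to Pycrl, the cytosolic reductase, was 0.17 ± 0.18 and -1.03 ± 0.22. Pycrl had a log2 fold change of -0.24 ± 0.10 that did not pass (adjusted p = 0.0807). Pck1, the cytosolic counterpart of Pck2, was well above background on 0 of 16 arrays and was not tested.

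**Figure D4:**
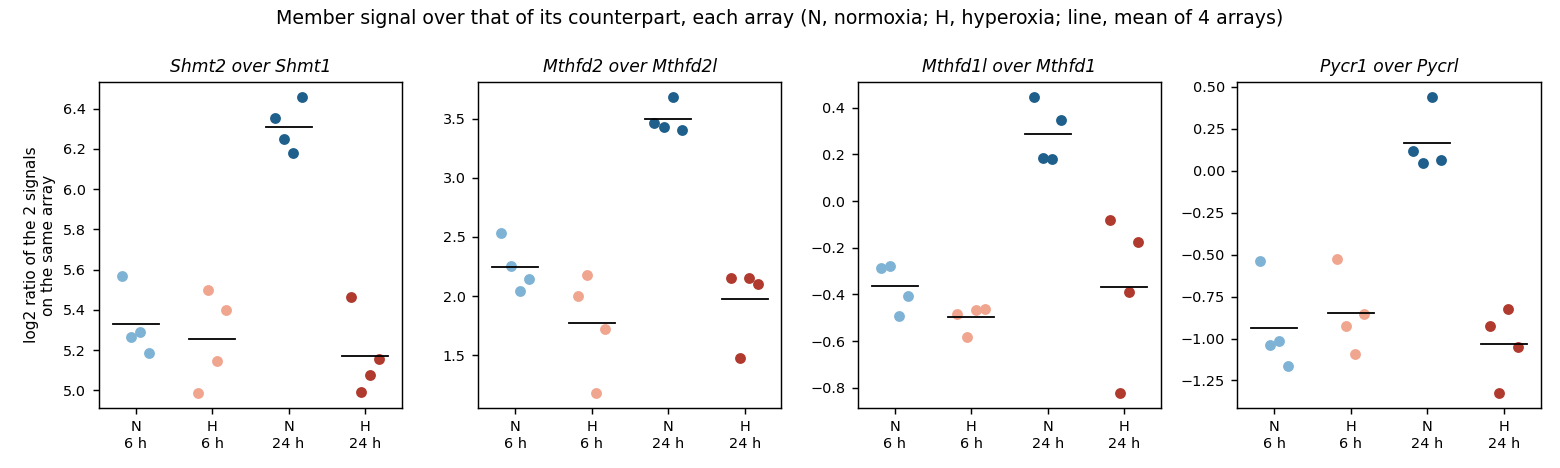
Log2 ratio of the signal of an enzyme to that of its counterpart on the same array, for 4 pairs and 4 groups (N, normoxia; H, hyperoxia), with points for arrays and a line for the mean of 4. In each pair the 4 hyperoxia arrays at 24 h lie below the 4 normoxia arrays at 24 h; the ratio of 2 probes shows unequal change and not which gene has more RNA.

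The rest of serine and glycine metabolism did not fall as a group. Of 17 tested genes 6 rose and 4 fell at 24 h, with a median log2 fold change of 0.013. Cth, which makes cysteine from cystathionine, fell 2.99-fold (-1.58 ± 0.19) and Gcat, which makes glycine from threonine, 1.88-fold (-0.91 ± 0.08). Gldc, which breaks glycine down, rose 2.18-fold (1.12 ± 0.18) and Cbs, which uses serine to make cystathionine, 1.80-fold (0.85 ± 0.20). Among the 8 tested genes for glycolytic steps before serine and around phosphoenolpyruvate, Pcx, pyruvate carboxylase, rose 1.99-fold (0.99 ± 0.13) and the other 7 did not pass.

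Of 23 other genes of folate and one-carbon metabolism 8 fell and 2 rose, with a median of -0.18. Aldh1l2, which oxidises formyl folate in the mitochondrion, fell 2.59-fold (-1.37 ± 0.18) and Slc19a1, the reduced folate carrier, 1.47-fold (-0.56 ± 0.07). Among 13 genes of purine synthesis, which uses the formate made by these enzymes, 10 fell and 1 rose, with a median of -0.34. Pfas fell 1.74-fold (-0.80 ± 0.08) and Prps1 1.58-fold (-0.66 ± 0.08), and Prps2, a second gene for the same first step, rose 1.64-fold (0.72 ± 0.09).

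Among 10 further genes of proline, glutamate and ornithine metabolism 4 fell and 3 rose. Arg2, the mitochondrial arginase, rose 2.96-fold (1.57 ± 0.24) and Aldh4a1, which carries proline breakdown on to glutamate, 1.97-fold (0.98 ± 0.06). Prodh, proline dehydrogenase, fell 1.88-fold (-0.91 ± 0.18) and P4ha1, which hydroxylates proline in collagen, 1.71-fold (-0.77 ± 0.12). Of 7 aspartate and asparagine genes 2 fell, Got1, which makes aspartate in the cytosol, 1.41-fold (-0.49 ± 0.08) and Nars, which loads asparagine onto its transfer RNA, 1.34-fold (-0.43 ± 0.09). Nars is also counted among the 20 cytosolic aminoacyl-tRNA synthetases. Asl, which splits argininosuccinate, rose 1.17-fold (0.22 ± 0.07).

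**Figure D5:**
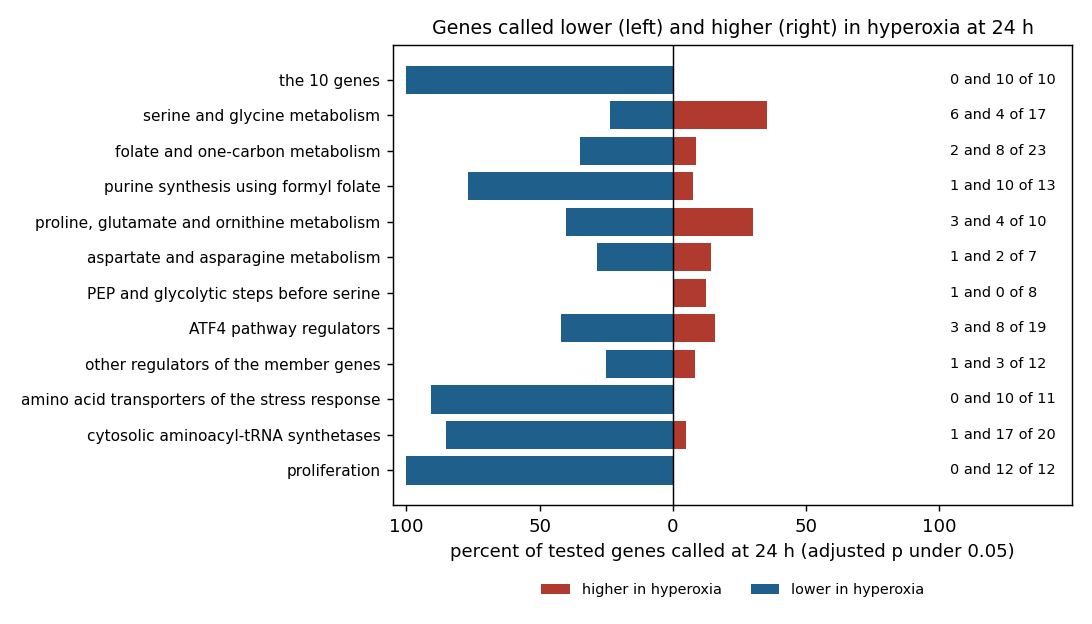
Percent of the tested genes of each list that were called lower (bars to the left) or higher (bars to the right) in hyperoxia at 24 h, with the numbers higher and lower of those tested at the right. All 10 genes described here, 10 of 11 transporters, 17 of 20 synthetases and 12 of 12 proliferation genes were lower. Nars is counted both among the aspartate and asparagine genes and among the synthetases.

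The other lists tied to ATF4 were examined in the same comparison. They too were chosen with earlier results of these data known, so their counts are a description. Of 11 amino acid transporters of the stress response 10 fell, with a median of -0.76, and Slc38a2, the neutral amino acid carrier, did not pass (0.03 ± 0.10). Slc7a5, the large neutral amino acid transporter, fell 2.81-fold (-1.49 ± 0.13), Slc7a3, a cationic one, 2.72-fold (-1.44 ± 0.23), and Slc6a9, which takes up glycine, 2.18-fold (-1.12 ± 0.18). Of 20 cytosolic aminoacyl-tRNA synthetases 17 fell, with a median of -0.55. Vars fell 2.11-fold (-1.08 ± 0.10), Yars 2.04-fold (-1.03 ± 0.09) and Eprs 1.82-fold (-0.86 ± 0.09), and Qars rose 1.15-fold (0.20 ± 0.07).

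ATF4 itself and the genes around it did not share 1 direction. Of 19 genes 8 fell and 3 rose at 24 h. Atf4 fell 1.28-fold (-0.35 ± 0.09, adjusted p = 0.0087), from 7.93 ± 0.07 to 7.57 ± 0.13, and Trib3, a pseudokinase induced by ATF4, fell 3.17-fold (-1.66 ± 0.25). Fgf21, a secreted stress hormone, fell 4.40-fold (-2.14 ± 0.20), and Chac1, which degrades glutathione, 1.97-fold (-0.98 ± 0.29). Ddit3, which encodes CHOP, did not pass (-0.46 ± 0.22, adjusted p = 0.140). Gdf15, a stress cytokine also under p53, rose 2.87-fold (1.52 ± 0.14).

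Ddit3 and the 10 genes also differed in their time course. In normoxia Ddit3 rose by 2.61 ± 0.22 from 6 h to 24 h and in hyperoxia by 2.52 ± 0.22, and the difference of its hyperoxia effects was -0.09 ± 0.31 (adjusted p = 0.889). For Atf4 the rises were 0.70 ± 0.09 and 0.45 ± 0.09, and their difference did not pass (-0.25 ± 0.13, adjusted p = 0.255). Trib3 rose by 1.78 ± 0.25 in normoxia, and the difference of its hyperoxia effects was -1.26 ± 0.35 (adjusted p = 0.0294). The arrays measure RNA, and ATF4 is known to be controlled largely at translation, which they do not measure.

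Among 12 other regulators of these genes 3 fell and 1 rose at 24 h. Foxm1, a transcription factor of the cell cycle, fell 3.54-fold (-1.82 ± 0.10) and Myc 1.30-fold (-0.37 ± 0.11, adjusted p = 0.0154). Rheb, which activates mTOR, fell 1.26-fold (-0.33 ± 0.11), and Kdm4c, a histone demethylase, rose 1.29-fold (0.37 ± 0.07). Nfe2l2, the gene of NRF2, did not pass (0.15 ± 0.12, adjusted p = 0.398).

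All 12 proliferation genes fell at 24 h in hyperoxia, with a median log2 fold change of -2.14. Mki67 fell 8.90-fold (-3.15 ± 0.16) and Plk1 8.86-fold (-3.15 ± 0.13). The summed linear signal of the 12 genes was 102.4 to 128.6 in normoxia and 27.15 to 33.45 in hyperoxia. Their time course differed from that of the 10 genes, since 7 of the 12 fell and 0 rose from 6 h to 24 h in normoxia, where the 10 genes rose. The part of proliferation in the falls of the 10 genes was not tested. Of the fibroblast and smooth muscle markers 0 of 11 rose and 1, Des, fell between the oxygen groups at 24 h (-1.62 ± 0.23), and of the macrophage markers 1, Cd68, rose and 0 fell among 10 (1.02 ± 0.09). Of the 11 tested type II markers Abca3 and Cxcl15 rose (0.68 ± 0.10 and 1.16 ± 0.25) and Lamp3, Sftpb, Etv5 and Lpcat1 fell (-1.03 ± 0.08, -0.96 ± 0.25, -0.79 ± 0.09 and -0.28 ± 0.10). The summed signal of the type II markers was 39.85 to 45.58 in normoxia and 29.62 to 36.8 in hyperoxia at 24 h. That of the fibroblast markers was 1579 to 1814 and 1473 to 1572, and neither sum overlapped between the oxygen groups. A linear sum gives most weight to bright genes. Lamp3, among the brightest type II markers, stood at 4.34 ± 0.04 in normoxia and 3.3 ± 0.08 in hyperoxia at 24 h. The median log2 fold change was -0.079 for the 11 tested type II markers and -0.042 for the 11 fibroblast markers. The lower type II sum therefore does not describe these markers as a set. The part of these cell types in the falls was not tested either.

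The genes whose values followed the 10 most closely were found by correlation over the 16 arrays, among tested genes with a RefSeq symbol, with the mean of the 10 after each had been standardised. They were Cdr2l (r = 0.978), Slc7a5 (0.977), Mars1 (0.973), Kif21b (0.972) and Fgf21 (0.971). The 16 points fall into 4 groups and share arrays, so the coefficients describe likeness only. Cdr2l had log2 fold changes of -1.11 for hyperoxia at 24 h and 1.01 for time in normoxia, and Kif21b, a kinesin, of -1.71 and 1.54. Mars1, methionyl-tRNA synthetase, had a smaller fall of -0.52 and a rise of 0.39.

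Where a gene had further probes they were fitted as a check among all 36723 probes tested. Psat1, Psph, Mthfd1l and Pycr1 each had a second probe, which was called lower at 24 h, with log2 fold changes of -1.24, -1.06, -0.93 and -1.24, and higher over time in normoxia. The brightest probe of Phgdh lies, per the array annotation (mm9), at chr17:53337968-53338027, whereas its other 2 probes lie on chromosome 3, at chr3:98117215-98117274 and chr3:98117303-98117361. The probes on chromosome 3 fell by 1.05 and 1.10 at 24 h, where the brightest fell by 0.94. From 6 h to 24 h in hyperoxia the brighter of the 2 was called lower (-0.31 ± 0.08, adjusted p = 0.00755). The other probe on chromosome 3 (-0.22 ± 0.09, adjusted p = 0.0634) and the probe on chromosome 17 (-0.11 ± 0.08) were not. The value of Phgdh in that comparison therefore depends on the probe.

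The probes of the other 9 genes lie, per the same annotation, at chr19:15979622-15979681 for Psat1, chr5:130271441-130271500 for Psph, chr10:126954811-126954870 for Shmt2, chr6:83256518-83256577 for Mthfd2 and chr10:6190563-6190622 for Mthfd1l. Those of Asns, Pck2, Aldh18a1 and Pycr1 lie at chr6:7625171-7625228, chr14:56168027-56168086, chr19:40624730-40624767 and chr11:120501179-120501238. The gene models used here are of a later build, so the exon or untranslated region under each probe was not read.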

How the data were processed

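Total RNA of 16 samples was labelled with Cy3 and hybridised to 1 array each, per the labels. The authors deposited 1 scanner file per array, made with Agilent Feature Extraction 10.7.3.1 per the submitters' processing notes. The processed signal is an intensity with background removed within the array and no normalization between arrays, per the file headers. Raw spot and background intensity values from the same deposited files served in 1 alternative. The authors deposited 1 further table of log2 values for 43964 probes, whose median is 7.194 on each array. They correlate at 0.9969 to 1 with log2 processed signals. Its normalization is not given in the sources used here, and it served as an alternative.

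Of 62976 spots 59305 are not controls. Spots of a probe were averaged, leaving 55681 probes. None was saturated, and 106 to 200 outlier spots an array were left out. Signals were taken as log2 minus the 75th percentile of the array. A gene was its brightest probe, tested if a group had 3 or more of its 4 arrays well above background. Probes were named through RefSeq tables (GRCm38.p6) where an entry matched, and 24264 of the 55681 probes kept the name in the deposited files. Of the 25408 genes tested 17300 had a RefSeq symbol, and the shares of all genes include the others. Groups were compared with limma 3.58.1 in R 4.3.3, over all 16 arrays with 1 mean per group and 12 residual degrees of freedom, by two-sided contrasts, p-values being adjusted by Benjamini-Hochberg over 25408 genes and a threshold of 0.05. The fit was tested on simulated data. The number of arrays limits the precision.

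The members and lists were chosen with earlier results of these data known. Genes named from a list are up to 4 called genes with the largest change, plus Atf4, Ddit3, Trib3, Myc and Nfe2l2. Some lists are given with fewer, and some genes of the lists are not reported here. Named beside them are the 5 genes most like the members by correlation and, of the brightest markers, only Lamp3, Abca3 and Tagln. Slc38a2, Shmt1, Mthfd1, Mthfd2l, Pycrl, Pck1, Sftpc, Des, Cd68 and the called type II markers other than Lamp3 and Abca3 were chosen after their values were seen.

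Deviations from group means correlated at 0.246, 0.345, 0.244 and 0.261 between normoxia and hyperoxia arrays of the same replicate number at 24 h, and at 0.252, 0.254, 0.355 and 0.0863 at 6 h. Replicate number is the slide column, so the pairing may be that of position. Alternatives were the background correction, the normalization, the scaling, the authors' table, the filter, the probe rule, a replicate block, array weights, the groups in the fit and each array left out.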

Additional observations from a re-analysis of the deposited data

Results flagged for a closer look

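In 3 of the 40 gene-by-group sets of 4 arrays that were examined, 1 array lay far from the others by Dixon's ratio, where chance marks about 1 set in 20. Normoxia 6 h replicate 1 was high for Shmt2, at 4.01 against 3.815 for the nearest array, and for Pycr1, at 0.7752 against 0.1837. Hyperoxia 24 h replicate 2 was low for Asns, at 5.833 against 6.255. Without these arrays the 3 genes kept their falls at 24 h and their rises in normoxia.

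The effect of hyperoxia differed between 24 h and 6 h for each of the 10 genes by the test of the difference itself, on 4 arrays a group. The differences were -0.881 for Phgdh, -1.03 for Psat1, -0.8322 for Psph, -1.305 for Shmt2, -1.072 for Mthfd2 and -0.9446 for Mthfd1l. For Asns, Pck2, Aldh18a1 and Pycr1 they were -0.7133, -1.409, -1.174 and -1.361.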

How the results depend on the processing

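Across 20 alternatives a comparison, 19 of them planned, all 10 falls at 24 h and all 10 rises in normoxia kept their direction and stayed past the threshold, the fall of Asns between -0.82 and -0.67 and that of Pck2 between -1.87 and -1.51. At 6 h the count stayed at 0. The count of rises over time in hyperoxia, 2 in the fit reported, was 1 with normexp and quantile normalization, with quantile normalization, with scaling to probes above background on all arrays, in the authors' table and with no filter, 0 with only the groups of the comparison, 3 with array weights, and 0 to 3 with 1 array left out. The count of falls there, 2, was 3 in 7 settings: both quantile normalizations, the authors' table, the mean of probes, array weights, without hyperoxia 6 h replicate 3 and the brighter chromosome 3 probe of Phgdh. With array weights Mthfd2 was called higher there (0.37, adjusted p = 0.0498) and Pycr1 lower (-0.39, adjusted p = 0.0342). The cause was not tested. Phgdh was called lower there in 5 alternatives, among them the brighter probe on chromosome 3 (-0.31), a choice made after seeing the data. With replicate number as a block, within each time or over both, 10 genes were lower at 24 h, and no call of the 10 genes changed. Over all genes the 6 h counts of 60 higher and 23 lower became 303 and 263 with array weights, 21 and 8 with only those groups, and 132 and 61 without hyperoxia 6 h replicate 3; without another array they ran down to 33 and 11, both without normoxia 6 h replicate 4. Lower calls were 51, 38 and 37 with normexp and quantile normalization, with quantile normalization and in the authors' table. In the difference 1683 higher and 1431 lower became 3137 and 2603 with array weights and 2708 and 2263 without hyperoxia 6 h replicate 3.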
